A study of Drosophila melanogaster with 6 samples.

Results

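The members described here are the nuclear genes of the mitochondrial ribosome and of the respiratory chain in Drosophila melanogaster, as far as 2 array designs measured them. A gene was taken where its current symbol begins with mRpL or mRpS (mitoribosomal proteins), ND- (complex I), Sdh (complex II), UQCR (complex III), COX and a digit (complex IV) or ATPsyn (complex V, the ATP synthase). The rule used names only, no measured value. It found 88 genes among the 6770 genes tested in S3 cells and 13 among the 2377 genes tested in ovaries, of which 10 were on both designs, so that 91 genes were measured on either. Release 6 of the fly annotation holds 164 genes with such symbols, and 55.5% of them were thus measured. Of the members, 10 in S3 cells and 6 in ovaries are named as copies of a subunit gene.

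The mitochondrial ribosome is built from proteins encoded in the nucleus, made in the cytosol and imported, around RNAs encoded in mitochondrial DNA. It translates the few respiratory chain subunits that mitochondrial DNA still encodes, which join nuclear-encoded subunits in complexes I, III, IV and V. Complex II is made of nuclear-encoded subunits only. Complexes I to IV pass electrons from NADH and succinate to oxygen, and complex V uses the proton gradient they build to make ATP. Ovaries are rich in mitochondria, which germ cells pass on to the egg. Methotrexate is an antifolate that blocks dihydrofolate reductase, and folate carries the carbon units used for thymidylate, purines and, in mitochondria, formyl-methionine for the start of translation.

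Treated S3 cells had received methotrexate at 5.2e-08 M for 4 days and were compared on 4 arrays with untreated S3 cells. Ovaries of flies exposed to methotrexate at 5 ppm for 5 days were compared on 2 arrays with ovaries of flies that had not been exposed. S3 is a Drosophila cell line first grown from embryos. The labels give no genotype, age or number of flies and no number of cultures. The p-values therefore set a mean against the spread among arrays, which may be technical alone. In ovaries all genes shared the same spread. Every array was a spotted cDNA array that held treated and untreated RNA in 2 dyes, and its deposited value is the log ratio of the channels. Whole ovaries hold several cell types, so fewer cells of a type and less RNA per cell cannot be told apart.

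The sources used here do not say which channel was the numerator. All values below are therefore positive or negative log2 ratios, with base 2 assumed, and a positive ratio does not say whether a gene was higher or lower with methotrexate. The sign in S3 cells cannot be set against the sign in ovaries for the same reason, so the tissues were not tested against each other. Per the labels, Cy3 labelled the treated S3 RNA on arrays 1, 3 and 4, and on array 2 Cy5 did. The S3 means below use arrays 1, 3 and 4, and array 2 is given beside them as deposited, with its sign not settled. In the S3 means all arrays have the same dye orientation, so dye and treatment cannot be told apart there, and the unsettled sign keeps array 2 from separating them. Treated ovary RNA is labelled Cy5 on both arrays, although the series text speaks of swapped dyes, so by the labels dye and treatment cannot be told apart in ovaries either. Ratios hold no expression level, so the labelled cell type and tissue could not be checked against marker levels. Across the members' pairs of neighbouring duplicate spots, r was 0.0175, 0.146, 0.467 and 0.521 for arrays 1 to 4 of the S3 cells. For ovary arrays 1 and 2 the r of such pairs was 0.947 and 0.867.

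In S3 cells no member passed limma's test against a log2 ratio of 0 at an adjusted p under 0.05. The lowest adjusted p of a member was 0.583, and over all genes 1 of 6770 passed (0.0148%). At an unadjusted p under 0.05 stood 3 of 88 members (3.41%), namely mRpL15, SdhAL and ND-15, against 572 of all genes (8.45%). The members' mean ratios ran from -0.55 to 0.80 with a median of 0.07, against a median of -0.01 over all genes. There were 52 positive and 36 negative members. Positive means made up 59.1% of members and 48.3% of all genes. Array by array this excess was uneven, absent on array 1 and largest on array 3. On arrays 1, 3 and 4, 37, 58 and 42 of the 88 members were positive, against 3384, 3478 and 3109 of all genes. The members' medians there were -0.07, 0.15 and -0.01, against -0.0001, 0.01 and -0.06 over all genes. The members were spread less widely, with an SD over genes of 0.27 for members and 0.34 for all genes. A mean beyond 0.5 on either side was seen in 8 members (9.09%), against 877 of 6770 genes in all. On all 3 arrays, 10 members were positive, beside 15.7% of all genes (1065), and 9 were negative, beside 16.8% (1139). A member's 95% interval, not adjusted for the number of genes, reached a median of 0.53 to either side of its mean. Differences much smaller than this were thus not detectable with these arrays. Larger member means, up to the highest of 0.80, did not pass after adjustment either.

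**Figure D1:**
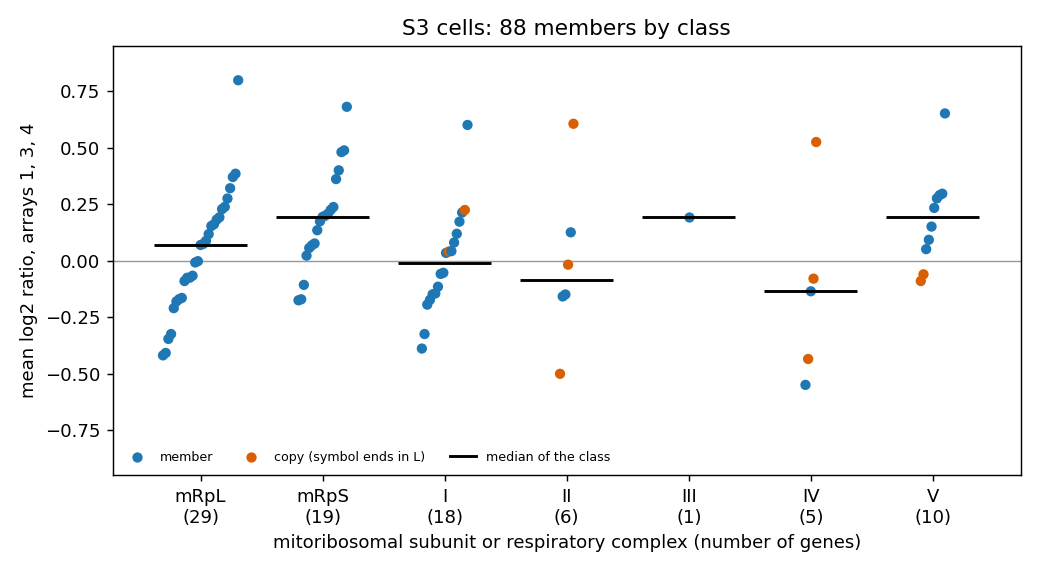
Mean log2 ratio of each of the 88 members in S3 cells (vertical axis, mean of arrays 1, 3 and 4 after centring of print blocks), grouped by mitoribosomal subunit or complex (horizontal axis, with the number of genes). Points are genes, orange points are copies of subunits, and black lines are class medians. The small mitoribosomal subunit has 16 of its 19 genes above 0, and each class but complex III, with 1 gene, has genes on both sides of 0.

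The 29 measured proteins of the large mitoribosomal subunit (of 47 in the annotation) were divided evenly about 0 in S3 cells, with 15 positive, 14 negative and a median of 0.07. mRpL15, a large subunit protein, had the lowest p of all members. Its log2 ratios were 0.41, 1.73 and 0.26 on arrays 1, 3 and 4 and -0.37 on array 2 as deposited. Array 3 stood well above the others, and the mean was 0.80 ± 0.81 (SD, n = 3; adjusted p 0.583 by limma). mRpL24 lay at the other end of the class with -0.34, -0.10 and -0.82 on arrays 1, 3 and 4 and 0.09 on array 2, a mean of -0.42 ± 0.36 (SD, n = 3). It was negative on the 3 arrays of the fit, by unequal amounts, and did not pass (limma adjusted p = 0.630). mRpL13 had -0.34, -0.42 and -0.28 on arrays 1, 3 and 4, the closest set among the named large subunit genes, and -1.25 on array 2; its value on array 1 rests on 1 spot. mRpL12, whose protein sits in the stalk that binds elongation factors, had -0.50 on array 1 but 0.17 and 0.12 on arrays 3 and 4, with -0.17 on array 2. mRpL54 had 0.74, 0.28 and -0.44 on arrays 1, 3 and 4 and 0.20 on array 2, so its sign also depended on the array.

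The small mitoribosomal subunit leaned to positive ratios more than the large one did. Of its 19 measured proteins (of 26), 16 had a positive mean and 3 a negative one, with a median of 0.19, and none passed. Over all genes 48.3% of means were positive. By array, 12, 14 and 12 of the 19 were positive on arrays 1, 3 and 4. Only 3 (15.8%) were positive on all 3 arrays, beside 15.7% of all genes. The 16 positive means became 13 with array medians in place of print blocks, 13 with array 2 added as deposited, and 13 without array 3. Without array 3 the median was 0.03. mRpS35 was the more even of the 2 named small subunit genes, with 0.55, 0.25 and 0.67 on arrays 1, 3 and 4 and 0.29 on array 2, a mean of 0.49 ± 0.22 (SD, n = 3; adjusted p 0.583 by limma). mRpS18B had 0.96, 0.46 and 0.02 on arrays 1, 3 and 4 and 0.02 on array 2, so it was near 0 on 2 arrays. Its mean was 0.48 ± 0.47 (SD, n = 3; adjusted p 0.609 by limma).

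Complex I, the NADH dehydrogenase that takes in electrons from NADH, was measured in S3 cells through 18 of 40 genes, with 9 positive, 9 negative and a median of -0.01. ND-15, an accessory subunit, was positive on every array, with 0.52, 0.17 and 1.11 on arrays 1, 3 and 4 and 0.20 on array 2. Its mean was 0.60 ± 0.47 (SD, n = 3; adjusted p 0.583 by limma). ND-51, the flavoprotein that binds NADH, had -0.42, 0.13 and -0.88 on arrays 1, 3 and 4 and -0.21 on array 2, a mean of -0.39 ± 0.50 (SD, n = 3; adjusted p 0.656 by limma). ND-75, the largest iron-sulphur subunit of the arm that takes in electrons, had -0.16, 0.79 and -0.11 on arrays 1, 3 and 4, so only array 3 was positive among these. On array 2 it had 1.58, from 1 of its spots. ND-13A had -0.44, 0.03 and -0.03 on arrays 1, 3 and 4 and -0.06 on array 2. ND-B8 had -0.01, 0.37 and -0.52 on arrays 1, 3 and 4 and -0.22 on array 2. Both lay near 0 on average, with means of -0.15 for ND-13A and -0.05 for ND-B8.

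Complex II, the succinate dehydrogenase shared with the citric acid cycle, had 2 of 6 measured genes positive in S3 cells and a median of -0.08. SdhB, the iron-sulphur subunit, had 0.29, 0.33 and -0.24 on arrays 1, 3 and 4 and -0.18 on array 2. SdhC, a membrane anchor, had -0.12, -0.23 and -0.10 on arrays 1, 3 and 4 and 0.06 on array 2. SdhD, the other membrane anchor, had -0.25, -0.22 and -0.0013 on arrays 1, 3 and 4 and -0.22 on array 2. These subunits lay close to 0 and differed in sign between them. The class extremes were copies: SdhAL, a copy of the flavoprotein gene, had 1.15, 0.44 and 0.22 on arrays 1, 3 and 4 and -0.06 on array 2, a mean of 0.61 ± 0.48 (SD, n = 3; adjusted p 0.583 by limma). Its array 1 value, the highest, rests on 1 spot. SdhBL, a copy of SdhB, had 0.05, -0.65 and -0.90 on arrays 1, 3 and 4 and 0.62 on array 2, a mean of -0.50 ± 0.49 (SD, n = 3; adjusted p 0.608 by limma). SdhCL had 0.06, 0.27 and -0.39 on arrays 1, 3 and 4 and 0.18 on array 2.

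Complex III, which passes electrons to cytochrome c, was represented in S3 cells by 1 of 9 genes, the small subunit UQCR-6.4. It had -0.19, 0.18 and 0.58 on arrays 1, 3 and 4 and -0.09 on array 2, so array 1 differed in sign from the other arrays of its fit, and the mean was 0.19 ± 0.38 (SD, n = 3). Complex IV, the cytochrome c oxidase that reduces oxygen, was measured through 5 of 19 genes, of which 1 was positive, with a median of -0.14. COX4, a nuclear-encoded structural subunit, had -1.01, -0.0015 and -0.64 on arrays 1, 3 and 4 and -0.44 on array 2. It was the lowest mean of any member, -0.55 ± 0.51 (SD, n = 3; adjusted p 0.592 by limma), with array 3 near 0. COX6AL, a copy of a COX6A subunit gene, was the positive gene of the class, with 0.58, -0.02 and 1.02 on arrays 1, 3 and 4 and -0.05 on array 2, a mean of 0.52 ± 0.52 (SD, n = 3; adjusted p 0.598 by limma). COX7AL had -0.49, 0.39 and -0.14 on arrays 1, 3 and 4 and -0.64 on array 2.

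Complex V was measured in S3 cells through 10 of 15 genes, of which 8 were positive, with a median of 0.19 and no gene past the threshold. The class medians by array were -0.14, 0.59 and 0.19 on arrays 1, 3 and 4 and -0.16 on array 2 as deposited, so array 1 ran against arrays 3 and 4. ATPsynC, the subunit that forms the rotor ring in the membrane, had -0.14, 0.97 and 1.13 on arrays 1, 3 and 4 and -0.16 on array 2. Arrays 3 and 4 were high and the others were slightly negative, and the mean was 0.65 ± 0.69 (SD, n = 3; adjusted p 0.583 by limma). ATPsyngamma, the central stalk, had 0.11, 0.57 and 0.15 on arrays 1, 3 and 4 and -0.36 on array 2. ATPsynbeta, the catalytic subunit, had -0.62, 0.74 and 0.16 on arrays 1, 3 and 4 and -0.13 on array 2, which spread it across 0. ATPsynGL, a copy of the gene for subunit g, had -0.41, 0.09 and 0.04 on arrays 1, 3 and 4 and 0.68 on array 2.

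**Figure D2:**
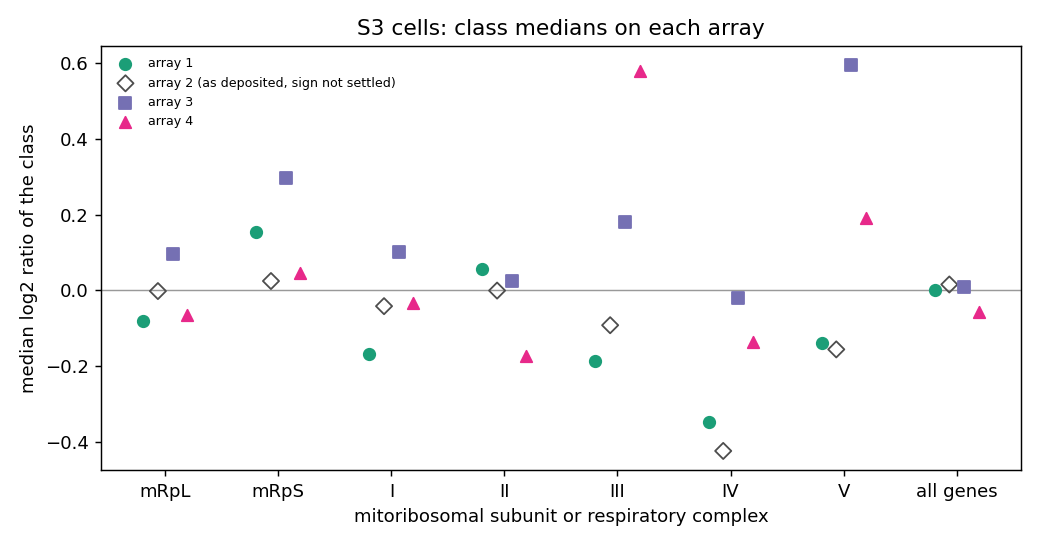
Median log2 ratio of the members of each class on each S3 array (vertical axis), by mitoribosomal subunit or complex and for all genes tested (horizontal axis). Filled symbols are arrays 1, 3 and 4 of the fit, and open diamonds are array 2 as deposited. Complex V spans -0.16 to 0.59 and complex III, a single gene, -0.19 to 0.58, while the medians of all genes lie between -0.06 and 0.02.

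Set against the complexes on the same array, the mitochondrial ribosome (48 genes, 31 positive, median 0.10) lay slightly to the positive side in S3 cells. The differences below were taken between class medians on each array and then averaged over arrays. The mitoribosome minus the respiratory chain (40 genes, 21 positive, median 0.04) was 0.10 ± 0.08 (SD over 3 arrays) and positive on 3 of 3 arrays. The mitoribosome minus all genes was 0.09 ± 0.06, also positive on 3 of 3. On arrays 1, 3 and 4 the large subunit had medians of -0.08, 0.10 and -0.06, and the small subunit 0.15, 0.30 and 0.05. By complex, the mitoribosome minus complex I was 0.11 ± 0.09 (3 of 3 arrays positive), minus complex II 0.11 ± 0.10 (2 of 3), and minus complex IV 0.25 ± 0.13 (3 of 3). The mitoribosome minus complex III was -0.11 ± 0.41 and minus complex V -0.14 ± 0.31, each positive on 1 of 3 arrays. These are descriptions of classes without a test, and for complexes III and V the spread between arrays was larger than the difference. Across the 88 members, which are not independent replicates, pairs of S3 arrays correlated at r between -0.05 and 0.19.

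The ovary design held few members: 3 proteins of the large mitoribosomal subunit, none of the small subunit, 3 of complex I, 2 of complex II, 1 of complex III, 3 of complex IV and 1 of complex V. Of the 13 genes, 6 bear the name of a subunit followed by L, which marks a copy of the subunit gene. Such copies in Drosophila are often expressed mainly in the testis. In ovaries 7 of 13 members (53.8%) passed limma's test at an adjusted p under 0.05, against 767 of 2377 genes (32.3%). They were 6 positive members, beside 422 positive calls over all genes (17.8%), and 1 negative member, beside 345 (14.5%). The members' means ran from -0.92 to 1.06 with a median of 0.17, against a median of -0.02 over all genes. On both arrays, 7 members were positive, beside 37.4% of all genes (888), and 4 were negative, beside 38.6% (917). Across the 13 members the ovary arrays correlated at r = 0.762, near the 0.758 across all genes. With 2 arrays limma gave every gene the same spread, so that each 95% interval reaches 0.46 to either side of the mean. A p-value of this fit thus depends on the size of the gene's mean alone. The SD printed beside it is not used for it.

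All 3 large subunit proteins on the ovary design passed with positive ratios. mRpL16, a protein of the large subunit's core, had 1.02 on array 1 and 1.01 on array 2, which are nearly equal. Its mean was 1.01 ± 0.0044 (SD, n = 2; adjusted p 0.000195 by limma). With array medians alone mRpL16 had 1.38 and 0.88 on arrays 1 and 2, so the near equality came with the centring. mRpL13 had 0.97 and 0.41, a mean of 0.69 ± 0.40 (SD, n = 2; adjusted p 0.0145 by limma), and mRpL54 had 0.87 and 0.28, a mean of 0.57 ± 0.42 (SD, n = 2; adjusted p 0.0461 by limma). Array 1 was the higher for both. With array medians alone mRpL13 had 0.72 and -0.19 on arrays 1 and 2, so its sign on array 2 moved with the centring.

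The 3 complex I genes were positive on both ovary arrays. ND-13A, a subunit of the arm that takes in electrons, had 1.37 and 0.75 on arrays 1 and 2, a mean of 1.06 ± 0.43 (SD, n = 2; adjusted p 9.93e-05 by limma). This mean joins 2 pairs of spots that disagree. The pair in print block 14 had 2.27 and 2.40 on array 1 and 1.56 and 1.45 on array 2. The pair in block 30 had 0.61 and 0.19 on array 1 and -0.14 and 0.13 on array 2, so the positive mean came largely from the first pair. ND-B8, an accessory subunit, had 1.24 and 0.65, a mean of 0.95 ± 0.42 (SD, n = 2; adjusted p 0.000511 by limma). ND-51 had 0.30 and 0.05, a mean of 0.17 ± 0.18 (SD, n = 2), and did not pass (limma adjusted p = 0.631).

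Complex IV was divided in the ovary. COX7C, a small structural subunit, had 0.60 and 0.58 on arrays 1 and 2, a mean of 0.59 ± 0.01 (SD, n = 2; adjusted p 0.0389 by limma). Its arrays were less alike with array medians alone, at 1.70 and 1.19. COX6AL had -0.53 and -1.32, a mean of -0.92 ± 0.55 (SD, n = 2; adjusted p 0.000694 by limma), the only negative member that passed. COX7AL had -0.62 and 0.15, which differ in sign, and a mean of -0.23 ± 0.54 (SD, n = 2; adjusted p 0.496 by limma).

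The measured genes of complexes II, III and V on the ovary design were all copies, and none passed with print blocks and rows centred. With blocks centred and rows left as they were, 1 gene of each passed as negative: SdhBL at -0.91 (limma adjusted p = 0.00174), UQCR-11L at -0.80 (0.00518) and ATPsynGL at -0.61 (0.0265). SdhBL had -0.50 and -0.51, a mean of -0.51 ± 0.0070 (SD, n = 2; adjusted p 0.0853 by limma), with its pairs of spots at -0.18 and -0.51 in block 8 and at -0.82 and -0.51 in block 20. SdhCL had -0.41 and 0.29, a mean of -0.06. UQCR-11L, a copy of a complex III subunit gene, had -0.28 and -0.38, a mean of -0.33 ± 0.07 (SD, n = 2; adjusted p 0.296 by limma). ATPsynGL had -0.20 and -0.21, a mean of -0.21 ± 0.0062 (SD, n = 2; adjusted p 0.550 by limma). Under array medians alone the arrays were less alike, with -0.88 and -0.36 for ATPsynGL and -0.93 and -0.46 for SdhBL.

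**Figure D3:**
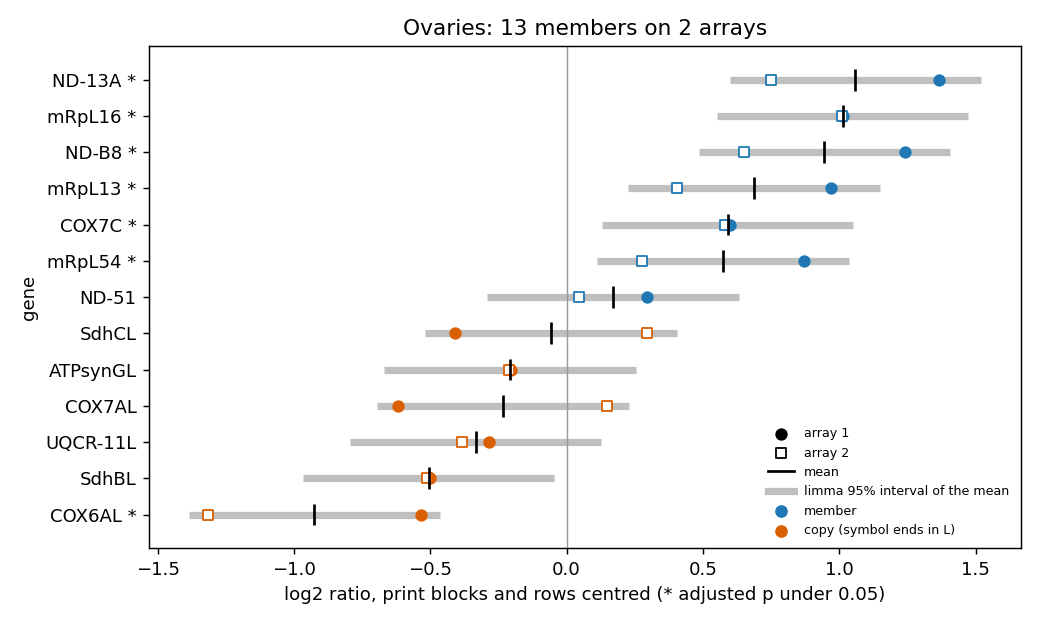
Log2 ratio of the 13 members in ovaries (horizontal axis, after centring of print blocks and rows), 1 gene per line. Filled circles are array 1, open squares array 2, black bars the mean and grey bars limma's 95% interval, with copies in orange and an asterisk for an adjusted p under 0.05. The 7 members that are not copies have means of 0.17 to 1.06, and the 6 copies have means of -0.92 to -0.06.

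In ovaries the sign of the mean thus divided the members by name. All 6 copies had a negative mean (median -0.28) and all 7 other members a positive mean (median 0.69). The grouping was made after the values were seen and has no test. It was kept under 7 of 7 settings of centring, scale and spot summary, in which the 6 copies were negative and the 7 others positive. These settings include the fit in which the grouping was seen. All of them use the same 2 arrays, so they are no independent support. The grouping was not kept with ovary array 2 turned, where values the arrays share cancel and 4 of 6 copies were positive. On array 2 alone the grouping was not kept either, with 2 of the 5 copies shared with the S3 design positive. Position on the array moves with this grouping: the 6 copies lay in rows 18 and 19 of their print blocks, whose medians over all spots were -0.53 and -0.39 (row 18) and -0.48 and -0.33 (row 19) on arrays 1 and 2 before the rows were centred. The other members in those rows were ND-B8 in row 18 and ND-13A in row 19, and both were positive. The part of row position in the result was not tested. In S3 cells 4 of 10 copies were positive, with a median of -0.04.

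The calls also moved with the centring. COX7C lay in row 1, with row medians of 1.05 and 0.27, and mRpL16 in row 5, with 0.38 and 0.17. With blocks centred but not rows, 8 of 13 members passed limma's test, 3 positive and 5 negative, and the 5 were copies. Over all genes 1166 passed there (49.1%). With arrays centred on their medians alone, which drops blocks and rows together, 5 of 13 members passed, against 926 of all genes (39.0%). The 4 members that passed on the same side there and with blocks and rows centred, against 501 of all genes (21.1%), were COX6AL at -1.36, COX7C at 1.44, mRpL16 at 1.13 and mRpL54 at 0.68 with array medians.

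With array medians ND-13A (0.57, limma adjusted p = 0.0846), ND-B8 (0.28, 0.405) and mRpL13 (0.26, 0.431) did not pass, and SdhBL did (-0.70, 0.0338). With rows centred within blocks 6 members passed, beside 25.9% of all genes, and with no centring 4 did, beside 35.5%. At equal scale 8 passed, beside 35.5%, and with the median of spots 6, beside 31.1%. Over the 7 settings, COX6AL and mRpL16 passed under 7, COX7C under 6, ND-13A and mRpL54 under 5, ND-B8 and mRpL13 under 4 and SdhBL under 3. ATPsynGL, COX7AL and UQCR-11L passed under 1, with blocks only, and ND-51 and SdhCL under 0. With the sign of array 2 turned, 0 of 13 members and 0.0% of all genes passed limma's test (0 members at an unadjusted p under 0.05). As deposited the arrays correlated at r = 0.758 across all genes, so turning 1 of them cancels most means. That setting therefore could hardly give calls and says little of the members. With either array left out, 0 of the 10 members shared with the S3 design passed, beside 0.0% of all genes (1 and 3 members at an unadjusted p under 0.05), and mRpL16, COX7C and UQCR-11L could not be tested.

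**Figure D4:**
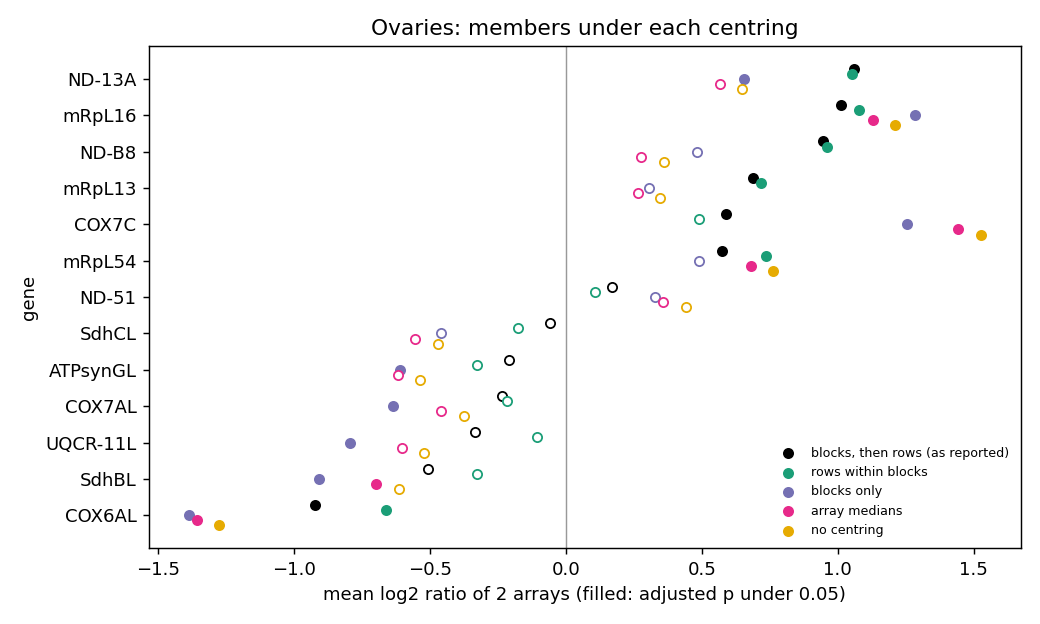
Mean log2 ratio of the 13 members over both ovary arrays (horizontal axis), 1 gene per line, under 5 ways of centring the values (colours). Filled points have a limma adjusted p under 0.05. COX7C runs from 0.49 to 1.53 with the centring, and the mean of no gene changes side.

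The 10 members on both designs can be set side by side, with no meaning in the relation of their signs. COX6AL had 0.52 in S3 cells and -0.92 in ovaries, ND-13A -0.15 and 1.06, ND-B8 -0.05 and 0.95, and mRpL13 -0.35 and 0.69. The ovary mean was the one farther from 0 in each of these, but all of them passed in ovaries, which took a large ovary mean. Ratios of all genes were also spread more widely in ovaries (SD over genes 0.59) than in S3 cells (0.34). For ND-51, which passed in neither, the S3 mean was the farther from 0. SdhBL had -0.50 in S3 cells and -0.51 in ovaries, which are alike in size only, and did not pass in either. The others were mRpL54 with 0.19 and 0.57, ND-51 with -0.39 and 0.17, COX7AL with -0.08 and -0.23, ATPsynGL with -0.09 and -0.21, and SdhCL with -0.02 and -0.06.

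Other mitochondrial genes gave no calls in S3 cells. Of 15 other genes of mitochondrial translation, such as tRNA synthetases and elongation factors, 8 were positive (median 0.01). The citric acid cycle had 1 of 6 positive (median -0.09), protein import 3 of 7 (median -0.06), and upkeep and transcription of mitochondrial DNA 3 of 6 (median 0.05). Cyt-c1 and levy, respiratory chain subunits with other names, were both negative. The cytosolic ribosome had 17 of 23 positive and a median of 0.10, beside 0.10 for the mitochondrial ribosome. By array the 2 were unlike. On arrays 1, 3 and 4 the cytosolic ribosome had medians of -0.14, 0.11 and 0.39, and the mitochondrial ribosome 0.05, 0.17 and 0.01. In ovaries Scsalpha1, the alpha subunit of succinyl-CoA synthetase, had 1.47 and 1.26, a mean of 1.37 ± 0.15 (SD, n = 2; adjusted p 2.72e-07 by limma). It was 1 of 3 measured citric acid cycle genes and passed with array medians too, at 1.26. bsf, which encodes an RNA-binding protein that acts on mitochondrial transcripts, was 1 of 3 other mitochondrial translation genes and had a mean of 0.77 ± 0.26 (SD, n = 2; adjusted p 0.00519 by limma). With array medians bsf was at 0.28 and did not pass (limma adjusted p = 0.404). Of 2 import genes and 6 cytosolic ribosome genes in ovaries none passed.

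Markers of other cell types were measured in part. In S3 cells the 6 hemocyte and matrix markers were all negative (median -0.34), and none of these, the 4 muscle, 3 fat body, 5 germline or 3 yolk protein genes passed. In ovaries 2 of 3 hemocyte and matrix markers passed, Pxn at 1.22 and NimC1 at -0.85, on opposite sides. 1 of 3 muscle markers, up (troponin T), passed at -0.83, and the 1 fat body marker did not pass. With array medians Pxn passed at 1.42, while NimC1 (-0.55, limma adjusted p = 0.0946) and up (-0.54, 0.102) did not. No germline or follicle cell marker of the list was among the ovary genes tested. The part of these cell types in the members' ratios was not tested.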

How the data were processed

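The authors deposited 1 log ratio of the 2 channels per spot and array, taken here as log2. Background correction, normalisation, base and numerator are not given in the sources used here. Deposited array medians were 0.08, -0.02, 0.06 and 0.18 (S3 arrays 1 to 4) and 0.11 and 0.06 (ovary arrays 1 and 2). Signal over background was not used here, and the number of arrays limits the precision.

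The platform annotation gave 1 gene to 15116 of 27648 S3 spots and 5666 of 16896 ovary spots, and several genes to 102 and 152, which were left out. Symbols were updated by Entrez number. No source states the print layout, which was inferred from how the values repeat along the spots. S3 spots were centred on 48 print blocks of 576 spots. Ovary spots were centred on 32 blocks of 528 spots and then on 22 rows. Spots of a gene were averaged per array (2 spots for 75 S3 members and 11 ovary members, 4 for 13 and 2). Genes measured on every array of a fit were tested against 0, two-sided, with limma 3.58.1 (R 4.3.3; lmFit, eBayes, Benjamini-Hochberg over all genes, threshold 0.05), after the method had been tested on simulated data. Python 3.11.15, pandas 2.3.3 and matplotlib 3.10.9 were used.

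Members and lists were chosen with earlier results of these data known. Named are the members that passed, the 2 with the smallest p in each class, those on both designs and a fixed set of core subunits. Alternatives were other centrings, equal scale, the median of spots, robust eBayes, either sign of array 2, and each array left out. The grouping of copies was added after the values were seen.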

Additional observations from a re-analysis of the deposited data

Results flagged for a closer look

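Among 35 results with 4 S3 arrays that could be examined for an array far from the rest, 2 stood apart, and chance flags about 1 in 20. SdhD had -0.0013 on array 4, while the other arrays lay between -0.25 and -0.22. These include array 2 as deposited, and with its sign turned array 4 would lie between the others. mRpL13 had -1.25 on array 2 (-1.2465), whose sign is not settled, while the other arrays lay between -0.42 and -0.28. Array 2 is not in the S3 means.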

How the results depend on the processing

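No S3 member passed under any of 12 alternative fits. No paired analysis was possible because S3 and ovary arrays share replicate numbers but were not compared, and each array already holds treated and untreated RNA. In S3 cells the large mitoribosomal median was -0.0292 with array medians, and the complex IV median was 0.0568 with array medians and array 2 turned. Leaving out each S3 array, medians ran from -0.0296 to 0.0554 (large subunit), 0.0337 to 0.2341 (small subunit), -0.1320 to 0.0469 (complex I), -0.1186 to -0.0033 (complex II), -0.0023 to 0.3804 (complex III), -0.3130 to -0.1541 (complex IV), 0.0917 to 0.3258 (complex V), 0.0034 to 0.1520 (mitochondrial ribosome) and -0.1047 to 0.0960 (respiratory chain). The lowest of each came without array 3, except for complex III (without array 4). The highest complex V median came without array 1, and the complex II median nearest 0 without array 4.

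In ovaries 7 members passed as reported, 8 with blocks only and with equal scale, 6 with rows within blocks and with the median of spots, 5 with array medians, 4 with no centring, and 0 with array 2 turned or either array left out, where 0 of all genes passed too. That last fit joined the remaining array with the S3 arrays over shared genes, so it gave no value for mRpL16, COX7C and UQCR-11L and assumed that the lone array varies like the S3 arrays. The median of all ovary genes was -0.14 with array medians and -0.16 with blocks alone, against -0.02 with blocks and rows. With array medians, blocks alone and no centring, the class medians were 0.36, 0.48 and 0.44 (complex I), -0.63, -0.68 and -0.54 (complex II), -0.60, -0.80 and -0.52 (complex III), -0.62, -0.61 and -0.54 (complex V) and -0.51, -0.54 and -0.42 (respiratory chain). With rows centred within blocks they were -0.10 (complex III) and -0.33 (complex V). With array 2 turned they were 0.28 (large subunit, and so the mitochondrial ribosome), 0.29 (complex I), 0.0493 (complex III) and 0.0044 (complex V), and COX6AL reversed to 0.39. Turning array 2 cancels values that the arrays share. The causes were not tested.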
